A study of Mus musculus with 9 samples.

Results

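RNA of the sorted population labelled Leydig from the fetal mouse testis was compared with a computed blend of the populations labelled Sertoli and Interstitial, to see which transcripts the Leydig sort held above or below such a blend. The blend took a weight of 0.27 of the Sertoli level and 0.73 of the Interstitial level, in counts per 1e6 reads in genes (CPM), for replicate A and for replicate B. A gene was a member when Leydig or the blend reached 5 CPM in both letters, which 11707 of the 38560 gene rows did. Members were thus chosen by their level in Leydig and the blend, and the weight by measured values too: 0.27 was set with the Sertoli genes of these libraries known, so the closeness of Sertoli genes to the blend is a description and is not tested here. At the edge of the threshold stood Zcchc10, at 3.583 and 4.295 CPM in Leydig A and B and 5 and 6.93 CPM in the blends, and just outside it Pycr1, at 4.517 and 4.996 CPM in Leydig and 5.155 and 4.659 CPM in the blends.

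The study sequenced RNA from 3 populations sorted by flow cytometry from gonads of Sf1-eGFP strain mice at 12.5 days post coitum (dpc), to purify fetal Leydig cells and to look for genes behind disorders of sex development. All groups share the reporter, a green fluorescent protein under control sequence of the gene for SF1 (Nr5a1), and a stain for CD31, the product of Pecam1, which served to take out germ and endothelial cells. Gonads counted as testes when they had cords, and the fluorescence gates were not given in the sources used here. A sample pools many sorts from different days, and the protocol speaks of samples A and B and of their mix. Replicate C was therefore taken as the mix, by elimination; the labels do not state this, and C entered no test. Nothing in the labels says how the embryos were divided between A and B, so p-values measure the spread between these pools, which may be technical.

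In the fetal testis, Sertoli cells form the cords, enclose the germ cells and secrete anti-Müllerian hormone and the ligand desert hedgehog. Fetal Leydig cells lie between the cords, arise from interstitial progenitors under hedgehog signalling and make androgens from cholesterol through the products of Star, Cyp11a1, Hsd3b1 and Cyp17a1. The interstitium also holds progenitors, vessels, blood cells and macrophages, and the mesonephros borders the gonad. In bulk RNA, fewer cells of a type and less RNA per cell cannot be told apart.

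Depth ran from 33.12 to 39.24 M reads in genes over the 9 libraries, with M for 1e6, of which 15.5 to 20.25% fell on the mitochondrial genome. A count of 0 allows up to 3 reads, or 0.0764 to 0.0906 CPM, which covers counting error only. Members took 99.2% and 99.1% of the reads in genes of Leydig A and B, and 11191 of them code for protein. Of the members, 158 passed through Leydig with the blend under the threshold in some letter and 473 through the blend with Leydig under it. Such genes had to differ to enter, whereas 11063 reached 5 CPM on both sides in both letters.

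Across the members, the Leydig sort lay closer to the blend than to either sort. The median absolute log2 difference was 0.193 between Leydig A and its blend and 0.173 for B, and 88.1% and 90.7% of the members lay within 1.5-fold. Between Leydig and Sertoli it was 0.251 in both letters, and between Leydig and Interstitial 0.273 and 0.265. Leydig A and Leydig B differed from each other by a median of only 0.101. The distance to the blend therefore exceeded the distance between the Leydig pools in both letters. A blend of 2 populations lies between them by construction, and all these distances share the Leydig libraries, so they are given as a description. No other weight closed the gap: the smallest median was 0.182 in A at a Sertoli weight of 0.51 and 0.156 in B at 0.57. Over both letters together it was 0.169 at a weight of 0.59, which serves below as the alternative weight.

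**Figure D1:**
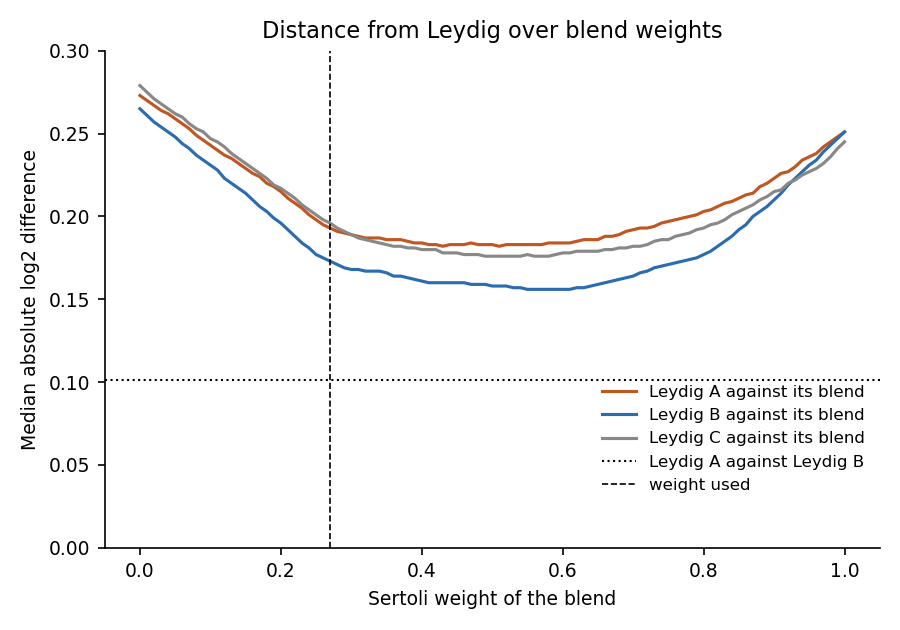
Median absolute log2 difference between each Leydig library and a blend of its own letter (vertical axis) against the Sertoli weight of the blend (horizontal axis), over the 11707 members. The curves are flat near the middle, reach their lowest values of 0.182 (A), 0.156 (B) and 0.176 (C), and stay above the dotted line at 0.101, the difference between Leydig A and Leydig B.

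The Leydig sort was higher than the blend for 1668 members (14.2%) and lower for 2461 (21.0%), called at an adjusted p of 0.05 by edgeR's quasi-likelihood fit with a delta-method standard error. The median log2 difference over all members was -0.021, with quartiles at -0.21 and 0.15, so most differences were small. Both directions together made up 35.3% of the members, against 29.6% of all 18048 genes tested, 10.3% higher and 19.4% lower. At 2-fold or more, 100 members (0.854%) were higher and 370 (3.16%) lower, and of all genes tested 1.06% and 6.99%. At 4-fold or more, 0 were higher and 138 lower. With the weight of 0.59, the 2-fold counts were 156 higher and 246 lower. Single pools also moved the counts: without Leydig A 892 were higher and 1537 lower, and without Interstitial B 948 and 1479. Of those called higher, 1666 of 1668 were also higher in C against the blend of C, and of those called lower 2443 of 2461 were lower. If C is a mix of A and B, this is a technical check. Leydig C lay between A and B in 53.5% of the members, against 39.2% for Sertoli C and 34.4% for Interstitial C.

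**Figure D2:**
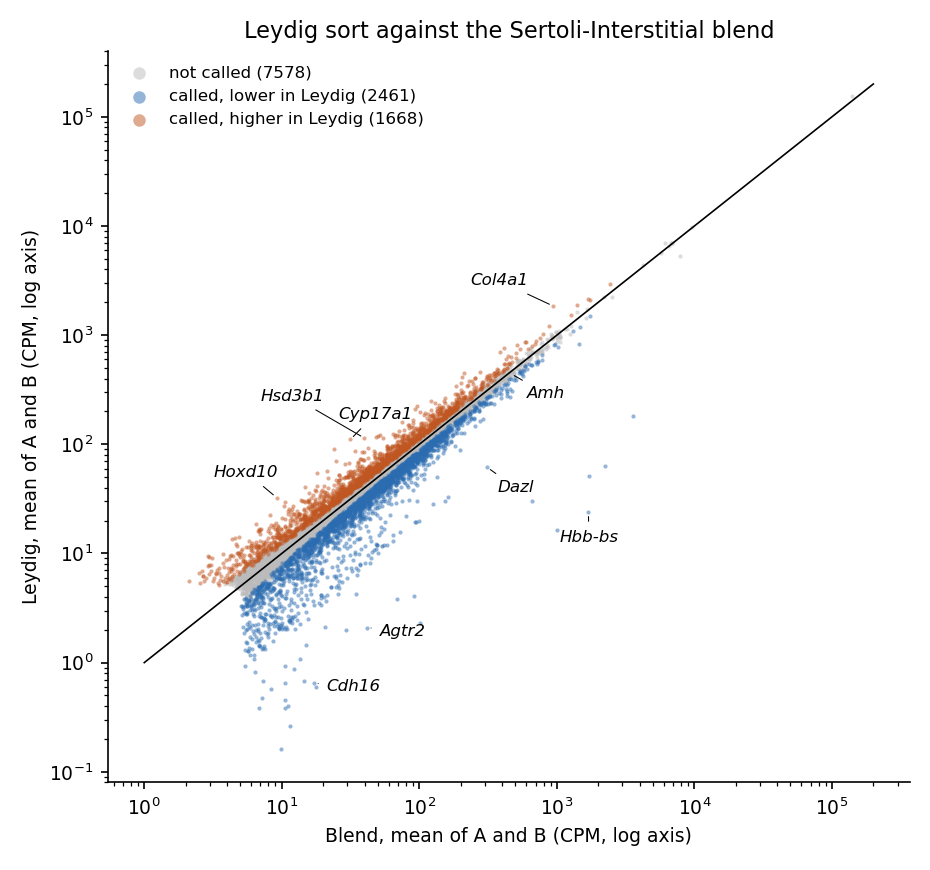
Mean CPM of A and B in Leydig (vertical axis, log scale) against the same in the blend (horizontal axis, log scale), 1 point for each of the 11707 members, with the line of equality. The 1668 members called higher (orange) stay near the line, and the 2461 called lower (blue) include a tail far below it, with Hbb-bs, Agtr2 and Cdh16.

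Sertoli genes stood close to the blend, which is what the weight rests on. Amh, which encodes anti-Müllerian hormone (ENSMUSG00000035262, chromosome 10, 80805243 to 80807648, GRCm38), was at 460, 431 and 447 CPM in Leydig A, B and C and at 441, 481 and 410 CPM in the blends. The Sertoli sort had 1479 and 1598 CPM and the Interstitial sort 57 and 67.2 CPM in A and B. The Leydig values of Amh thus lay among those of the blend and far from both sorts. Dhh, the desert hedgehog ligand, was at 116 and 121 CPM against 122 and 126 CPM, and the cystatin gene Cst9 at 109 and 107 CPM against 116 and 107 CPM. Sox9, the transcription factor that directs Sertoli fate, was at 48.6 and 53.6 CPM against 37.6 and 51.6 CPM. The summed level of all 24 listed Sertoli markers, 21 of them members, was 1813 and 1751 CPM in Leydig. It was 1697 and 1769 CPM in the blend, 5421 and 5594 CPM in Sertoli and 320 and 355 CPM in Interstitial. Over the 21 members, the median log2 difference was -0.04.

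Not every Sertoli gene followed. Of the 21 markers, 4 were called higher than the blend (Sostdc1, Gdnf, Cyp26b1 and Vnn1) and 1 lower, counts that follow the weight: at 0.20 they were 16 and 1, and at 0.59 they were 1 and 20. Sostdc1 went against its place on the list, at 1.74 and 1.09 CPM in Sertoli, 9.59 and 7.46 CPM in Interstitial and 12.7 and 9.41 CPM in Leydig, and it lost its call without Leydig A or Interstitial B (edgeR adjusted p 0.152 in each). Gdnf, a growth factor for spermatogonia, was at 40.3 and 40.2 CPM in Leydig and 24.5 and 28.1 CPM in the blend. Cyp26b1, which degrades retinoic acid, was at 203 and 188 CPM against 129 and 149 CPM. Gdnf and Cyp26b1 stood well below the Sertoli sort, and at the weight of 0.59 Gdnf (-0.24) and Cyp26b1 (-0.43) turned lower than the blend. Dmrt1, a transcription factor shared by Sertoli and germ cells (ENSMUSG00000024837, chromosome 19, 25505618 to 25604329), was at 18.7, 23.8 and 19.1 CPM in Leydig, 57.5 and 63.7 CPM in Sertoli and 35 and 38.9 CPM in Interstitial. All 3 Leydig libraries thus lay under the A and B libraries of both other sorts. Dmrt1 was 2.04-fold lower than the blend and lower than each sort (edgeR adjusted p 3e-05 against Sertoli and 0.00109 against Interstitial).

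Star and 3 enzymes of androgen synthesis stood above the blend, and Hsd17b3, which makes testosterone, stood close to it. Cyp17a1, whose product turns pregnenolone and progesterone into androgens (ENSMUSG00000003555, chromosome 19, 46667165 to 46673172), was at 151, 70.5 and 121 CPM in Leydig A, B and C and at 36.3, 26.8 and 34.5 CPM in the blends. Every Leydig library was above every blend, although Leydig A and B differed by more than 2-fold between themselves. The fitted difference was 3.5-fold, or 1.81 with an SE of 0.29 in log2 units (edgeR adjusted p 0.00305). Hsd3b1, which encodes a 3-beta-hydroxysteroid dehydrogenase (ENSMUSG00000027871, chromosome 3, 98852194 to 98859794), was at 143, 84.9 and 126 CPM against 45, 34.8 and 42 CPM (1.51 ± 0.21, edgeR adjusted p 0.00195). Star, the carrier of cholesterol into mitochondria (ENSMUSG00000031574, chromosome 8, 25806555 to 25815982), was at 70.3, 44.6 and 60.9 CPM against 22.4, 20.1 and 21.4 CPM (1.43 ± 0.16, edgeR adjusted p 0.00096). Cyp11a1, which cleaves the cholesterol side chain, was at 74, 34.2 and 63 CPM against 21.5, 14.3 and 18 CPM (1.59 ± 0.34, edgeR adjusted p 0.00931). For all 4 genes the Leydig and blend libraries did not overlap, and A was the higher Leydig pool. Cyp11a1 lost its call against the blend of weight 0.59 (0.85, edgeR adjusted p 0.112). Hsd17b3 was not called, at 28.7, 27.7 and 30.7 CPM in Leydig and 30.5, 28.1 and 29.8 CPM in the blends (-0.05 ± 0.09 on the log2 scale, edgeR adjusted p 0.686), and it was at 104 and 93.2 CPM in Sertoli and 3.27 and 4.02 CPM in Interstitial.

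Star, Cyp11a1, Hsd3b1 and Cyp17a1 were also high in the Sertoli sort. Cyp17a1 had 75 and 64.9 CPM in Sertoli A and B and 22 and 12.7 CPM in Interstitial. Hsd3b1 had 107 and 88.8 CPM in Sertoli and 22.1 and 14.8 CPM in Interstitial. Star had 48.3 and 45.9 CPM in Sertoli and 12.8 and 10.6 CPM in Interstitial, and Cyp11a1 had 50.4 and 40.4 CPM and 10.8 and 4.62 CPM. Leydig B was below Sertoli B for Hsd3b1, Star and Cyp11a1, and none of the 4 was called between Leydig and Sertoli (edgeR adjusted p 0.151 for Cyp17a1, 0.511 for Hsd3b1, 0.262 for Star and 0.632 for Cyp11a1). Both sorts entered the blend, so these comparisons share libraries with those above.

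Of the 14 measured genes of the steroidogenesis list, 8 were called higher than the blend and 1 lower, with a median log2 difference of 0.53. At the weight of 0.59 these counts were 4 and 4, and the median was 0.07. Among the supporting factors, Fdx1, which passes electrons to the mitochondrial cytochromes P450, was at 31 and 24 CPM against 16.9 and 16.3 CPM. Its reductase Fdxr was at 139 and 117 CPM against 85.2 and 86.3 CPM, and the lipoprotein receptor Scarb1 at 107 and 83 CPM against 64.8 and 64 CPM. The 3 genes were called higher by 0.72, 0.58 and 0.56 on the log2 scale, but at the weight of 0.59 Fdxr turned to -0.25 (edgeR adjusted p 0.049) and Scarb1 lost its call (0.09, edgeR adjusted p 0.571). Nr5a1, whose regulatory sequence drives the reporter of the sort, was at 210 and 191 CPM in Leydig, 139 and 144 CPM in the blend, 367 and 378 CPM in Sertoli and 54.1 and 57.9 CPM in Interstitial (0.50 ± 0.06 on the log2 scale, edgeR adjusted p 0.00121). Its level thus lay between the sorts, above the blend at the weight of 0.27 and below it at 0.59 (-0.27, edgeR adjusted p 0.0169). Por, Cyb5a, Cyb5b, Tspo and Nr0b1 were not called. The member called lower was Hsd3b6, a near copy of Hsd3b1 that may share reads with it, at 0.361 and 0.847 CPM in Leydig, 0.161 and 0.945 CPM in Sertoli and 18.1 and 30 CPM in Interstitial.

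Other genes known from fetal Leydig cells were mostly above the blend, with Agtr2 and Dlk1 below it. Of 9 measured members of this list 7 were called higher and 2 lower (median log2 difference 1.11). Vcam1, a cell adhesion molecule (ENSMUSG00000027962, chromosome 3, 116109949 to 116129688), was at 45.7, 35.3 and 42.5 CPM in Leydig and 15.1, 14.6 and 15.5 CPM in the blends. It was also above both sorts, at 15 and 17.2 CPM in Sertoli and 15.2 and 13.6 CPM in Interstitial (edgeR adjusted p 0.000119 and 0.000108). The prolactin receptor gene Prlr was at 32.6 and 21.6 CPM in Leydig, 15.2 and 14 CPM in Sertoli and 9.54 and 8 CPM in Interstitial, and the corticotropin receptor gene Mc2r at 7.05 and 5.32 CPM in Leydig against at most 2.87 CPM in the A and B libraries of the other sorts. Vcam1, Prlr and Mc2r were the 3 genes of the list above both sorts, a call that does not depend on the weight. The secretin gene Sct was at 14.3, 10.2 and 13.7 CPM against 4.63, 4.69 and 4.39 CPM in the blends, and the renin gene Ren1 at 81.7 and 51.8 CPM against 34.7 and 27.1 CPM. Ren1 lost its call at the weight of 0.59 (0.56, edgeR adjusted p 0.072). Mc2r and Sct were members only through Leydig, with the blend under 5 CPM in both letters, and so had to be higher to enter. The median of the list was 0.96 with a threshold of 1 CPM and 0.88 with 10 CPM.

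Agtr2, a receptor for angiotensin II (ENSMUSG00000068122, chromosome X, 21484544 to 21489164), went the other way. It was at 2.35, 1.84 and 2.14 CPM in Leydig, 1.18 and 0.83 CPM in Sertoli and 68 and 45.4 CPM in Interstitial, so that the Leydig sort was 19.9-fold below the blend (edgeR adjusted p 4.7e-05). Dlk1, a non-canonical Notch ligand of fetal stroma, was at 96.5 and 80 CPM against 138 and 118 CPM in the blend, and Sertoli had 24.9 and 25.7 CPM. Dlk1 changed direction with the weight (0.09 at 0.59, not called). The gonadotropin receptor gene Lhcgr did not reach 5 CPM in Leydig B and was no member, at 8.76, 4.91 and 9.12 CPM in Leydig and 2.32, 1.78 and 2.06 CPM in the blends. The testis descent hormone gene Insl3, which defines Leydig cells later in development, was under 1 CPM in every library of A and B, with 0.783 and 0.643 CPM in Leydig.

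**Figure D3:**
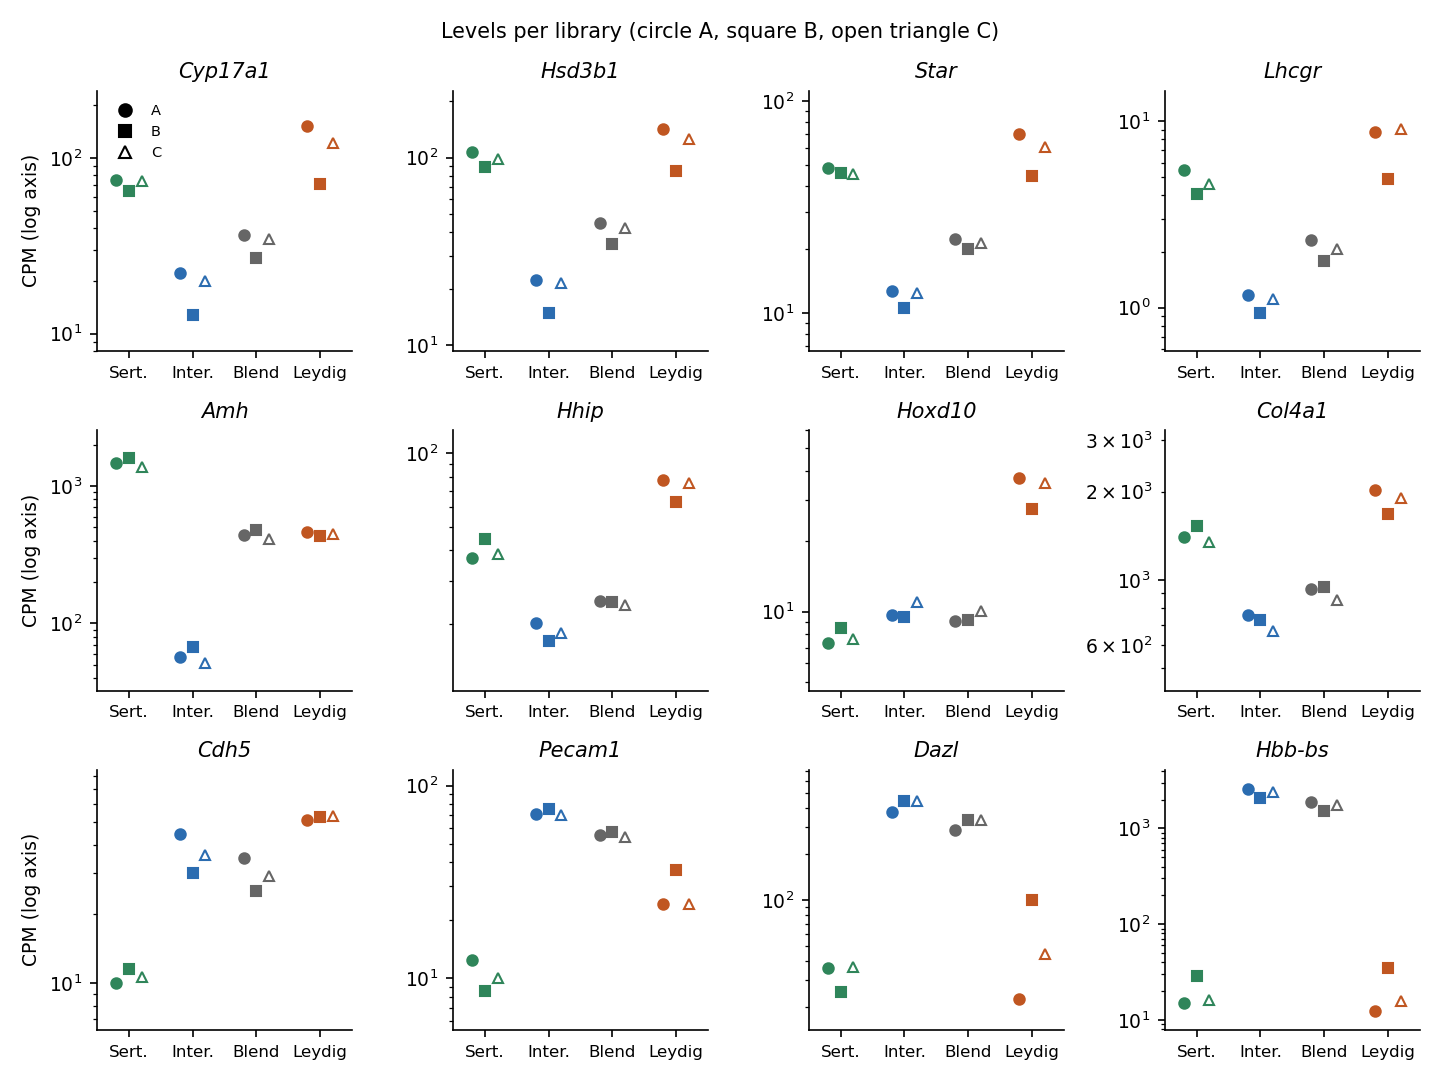
CPM (log axis) of 12 genes in the Sertoli, Interstitial and Leydig libraries and in the blend, with a circle for A, a square for B and an open triangle for C. Cyp17a1, Hsd3b1, Star and Lhcgr lie nearer the Sertoli than the Interstitial level in Leydig, Amh lies on the blend, Hhip, Hoxd10 and Col4a1 lie above both sorts, Cdh5 and Pecam1 differ in direction, and Dazl and Hbb-bs lie far below their Interstitial level.

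The 250 bases before the start of Hsd3b1 and of Sct, both higher in Leydig than in the blend, are shown to set their sequences beside the motif AAGGTCA, which SF1 is known to bind; Sct was chosen after its values were seen. The sequences are from RefSeq on GRCm38.p6, written along the strand of the gene, for chr3:98859795-98860044 (minus strand) and chr7:141279134-141279383 (minus strand). Capitals mark the motif, searched on both strands.
Hsd3b1: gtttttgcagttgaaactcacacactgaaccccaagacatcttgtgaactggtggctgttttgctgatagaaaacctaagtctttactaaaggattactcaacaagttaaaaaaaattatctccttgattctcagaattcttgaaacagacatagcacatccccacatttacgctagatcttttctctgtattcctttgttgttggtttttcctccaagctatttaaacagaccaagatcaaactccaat
Sct: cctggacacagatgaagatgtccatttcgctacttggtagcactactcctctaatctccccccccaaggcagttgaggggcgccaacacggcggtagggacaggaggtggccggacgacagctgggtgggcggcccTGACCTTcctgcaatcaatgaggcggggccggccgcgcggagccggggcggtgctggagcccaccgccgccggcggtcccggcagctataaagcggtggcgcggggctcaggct
The Sct window held 1 match, TGACCTT, the motif's reverse complement, from 114 to 108 bases before the start, and the Hsd3b1 window held 0. The windows of Cyp11a1 at chr9:57997774-57998023 and chr9:58014702-58014951 (plus strand) were also searched, are not shown and held 0. The window at chr9:58014702-58014951 overlaps transcripts of Cyp11a1 itself. Of 32851 promoter windows of this length, 4.08% held the motif. A match describes the letters of the window and shows no binding.

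Hedgehog target genes were higher in Leydig than in the blend, while the ligand was not. Dhh stood at the blend, as given above. Hhip, a target that binds and restrains hedgehog ligands (ENSMUSG00000064325, chromosome 8, 79965851 to 80058006), was at 77.9, 63.3 and 75.2 CPM in Leydig and 24.7, 24.5 and 23.8 CPM in the blends. It was at 37.1 and 44.7 CPM in Sertoli and 20.2 and 17 CPM in Interstitial, so every Leydig library was above all of these. The difference from the blend was 2.87-fold (1.52 ± 0.11 on the log2 scale, edgeR adjusted p 0.000221). Gli1, a transcription factor and direct target of the pathway, was at 73.6 and 60.6 CPM against 47.1 and 41.7 CPM, and the transcription factor Gli2 at 81.3 and 73.5 CPM against 49.2 and 52.1 CPM. Hhip, Gli1, Gli2, Hhat and Sufu were above both sorts.

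The receptor gene Ptch1, itself a target, was at 210 and 201 CPM in Leydig, 139 and 150 CPM in the blend and 187 and 226 CPM in Sertoli (0.51 ± 0.08 against the blend, edgeR adjusted p 0.00256). The co-receptor genes Boc and Cdon and the transcription factor gene Gli3 were not called. Gas1, another co-receptor, was called lower, at 76 and 83.9 CPM against 107 and 110 CPM, and turned to 0.19 at the weight of 0.59 (edgeR adjusted p 0.0873). In all, 7 of 15 measured hedgehog genes were called higher and 1 lower (median log2 difference 0.22). Without Leydig A the 7 became 5, and without Interstitial B they became 4.

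Of 14 measured genes of the Notch pathway, which holds interstitial progenitors back from becoming Leydig cells, 2 were called, both higher (median 0.15), a share close to the 14.2% of all members called higher. Heyl, a Notch target, was at 60.6 and 51.5 CPM against 29.7 and 30.6 CPM (0.89 ± 0.10, edgeR adjusted p 0.00106), close to the Sertoli level of 43.9 and 54.1 CPM. The ligand gene Jag1 was at 84.1 and 72.6 CPM against 57.5 and 58.9 CPM, and its call was lost without Leydig A (0.32, edgeR adjusted p 0.0579). Of the target genes Hes1 and Hey1, neither was called. Hes1 was higher in B than in A on both sides, at 64.8 and 158 CPM in Leydig A and B and 49.3 and 112 CPM in the blends.

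Genes of the interstitial stroma and its progenitors were mostly above the blend, several of them above both sorts. Pdgfra, a receptor for platelet-derived growth factor that marks this stroma, was at 723, 669 and 717 CPM in Leydig, 383, 385 and 387 CPM in the blends and 449 and 445 CPM in Interstitial. Lhx9, a homeobox gene of the gonadal somatic lineage, was at 255 and 226 CPM in Leydig, 156 and 157 CPM in Interstitial and 58.2 and 57.3 CPM in Sertoli. Their differences from the blend were 0.86 ± 0.07 and 0.89 ± 0.07 on the log2 scale (edgeR adjusted p 0.000231 and 0.000195). For each gene both Leydig pools were above both Interstitial pools. Of 17 measured members 11 were called higher and 5 lower (median 0.46), and 7 were above both sorts, Tcf21, Tbx2 and Maf among them.

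The Leydig sort was not uniformly rich in interstitial genes. Wnt5a, a secreted signal of the stroma, was at 309 and 277 CPM in Leydig and 263 and 255 CPM in Interstitial, and Nr2f2, an orphan nuclear receptor, at 204 and 193 CPM against 204 and 195 CPM. Both were called above the blend, and neither was called against Interstitial alone (edgeR adjusted p 0.201 and 0.942). Nr2f2 lost its call against the blend without Interstitial B (0.28 on the log2 scale). Gata2, a transcription factor best known from blood progenitors, was at 2.23, 2.05 and 2.36 CPM in Leydig, 3.08 and 2.89 CPM in Sertoli and 32.6 and 21.9 CPM in Interstitial. It was 9.71-fold below the blend (edgeR adjusted p 9.7e-05). Tbx3 was at 7.23 and 6.08 CPM in Leydig and 30.7 and 20.5 CPM in Interstitial. Meis1, Meis2 and Nr2f1 were also called lower, by 0.60 or less on the log2 scale.

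Most endothelial genes were above the blend, while Pecam1, the gene of the antigen used for depletion, was below it. Cdh5, the cadherin of endothelial junctions (ENSMUSG00000031871, chromosome 8, 104101625 to 104144511), was at 51.1, 52.8 and 53.1 CPM in Leydig, 44.5 and 30.2 CPM in Interstitial and 10 and 11.5 CPM in Sertoli. Against the blend it was 1.72-fold higher (edgeR adjusted p 0.00673). Pecam1 (ENSMUSG00000020717, chromosome 11, 106654217 to 106750628) was at 24.2, 36.4 and 24.3 CPM in Leydig and 71.4 and 75.7 CPM in Interstitial, 1.87-fold below the blend (edgeR adjusted p 0.00887). Thus the Leydig sort held more Cdh5 than the Interstitial sort and less Pecam1. Pecam1 lost its call at the weight of 0.59 (-0.26, edgeR adjusted p 0.313).

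Of 18 measured endothelial genes 13 were called higher and 1, Pecam1, lower, with a median log2 difference of 0.79. Sox17, a transcription factor of arterial endothelium, was at 5.99 and 7.13 CPM in Leydig, 3.47 and 2.93 CPM in Interstitial and 0.563 and 0.544 CPM in Sertoli. Sox7 was at 7.98 and 7.42 CPM, 4.3 and 3.05 CPM, and 0.911 and 0.859 CPM in the same order. Both Leydig pools were above every A and B library of the other sorts for both genes. Sox17 and Sox7 were members only through Leydig, as the other sorts lay under 5 CPM, and so had to be higher to enter. With a threshold of 10 CPM the median of the list was 0.7. Sox17, Sox7 and 6 more (Sox18, Erg, Ramp2, Cldn5, Tek and Cdh5) were above both sorts. Kdr, a receptor for vascular endothelial growth factor, was at 81.4 and 94.1 CPM in Leydig and 107 and 102 CPM in Interstitial, and Emcn, Eng and Mmrn2 were not called. Summed over the list, levels were 372 and 417 CPM in Leydig, 336 and 279 CPM in the blend, 431 and 355 CPM in Interstitial and 78 and 74.3 CPM in Sertoli.

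Among growth factors and receptors of the PDGF and VEGF families, 7 of 16 were called higher and 1 lower (median 0.37), and 5 were above both sorts. Besides Pdgfra these were Nrp2, a co-receptor, at 58 and 56.2 CPM against 30.8 and 32.3 CPM in the blend, Flt4 at 14.8 and 18.6 CPM against 10.1 and 7.86 CPM, Tek and Vegfa. Flt4, Flt1 and Tek, also called higher, are receptors mainly of endothelium, and Flt1, Kdr and Tek are in both lists. The ligand gene Pdgfa, made in Sertoli cells, was the 1 called lower, at 31.3 and 31.6 CPM against 40.3 and 42.4 CPM.

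Blood, germ and mesonephric genes were far below the blend, and closer to the Sertoli level than to the Interstitial level. All 12 measured erythroid genes, all 15 germ cell genes and all 5 mesonephric genes were called lower, with median log2 differences of -4.93, -2.21 and -2.52. Without Leydig A or B the erythroid median was -4.27 or -6.24, and the mesonephric median -1.75 or -4.53. Hbb-bs, an adult beta-globin gene (ENSMUSG00000052305, chromosome 7, 103826534 to 103828096), was at 12.5, 35 and 15.7 CPM in Leydig, 14.9 and 28.5 CPM in Sertoli and 2577 and 2058 CPM in Interstitial. The Leydig sort was 71.3-fold below the blend (edgeR adjusted p 0.000121) and was not called against Sertoli (edgeR adjusted p 0.828). Hbb-bs and Hbb-bt, and Hba-a1 and Hba-a2, are near-identical pairs between which reads may be divided uncertainly. Over all 16 listed erythroid genes found among the gene rows, 12 of them members, the sum was 167 and 599 CPM in Leydig A and B. It was 163 and 465 CPM in Sertoli and 15084 and 15409 CPM in Interstitial.

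Dazl, an RNA-binding protein of germ cells (ENSMUSG00000010592, chromosome 17, 50279395 to 50293636), was at 22.6, 101 and 44.6 CPM in Leydig, 36 and 25.1 CPM in Sertoli and 378 and 448 CPM in Interstitial. Leydig A lay below both Sertoli pools and Leydig B above them, and both lay under every Interstitial pool. Over all 19 listed germ cell genes, 15 of them members, the sum was 96.1 and 361 CPM in Leydig A and B. It was 1008 and 1110 CPM in the blend. Without Interstitial B, 12 of the 15 were called lower, and without Leydig A or B the median was -1.54 or -3.43. Leydig B was thus the pool richer in germ cell genes, and it also had more erythroid and mesonephric RNA. It had less RNA of Star, Cyp11a1, Hsd3b1 and Cyp17a1. The part of these other cells in the difference between the Leydig pools was not tested.

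Cdh16, a cadherin of kidney and mesonephric epithelium (ENSMUSG00000031881, chromosome 8, 104601911 to 104624396), was at 0.391, 0.906 and 0.597 CPM in Leydig and 21.9 and 25 CPM in Interstitial, 26.3-fold below the blend (edgeR adjusted p 9e-05). Epcam, an adhesion molecule of epithelia and germ cells, was at 6.78 and 19.2 CPM against 60.1 and 68.9 CPM in the blend. Of the macrophage genes only 5 of 18 listed were members, and 3 of these (Csf1r, Cx3cr1 and Lyz2) were called lower. Csf1r, the receptor on which macrophages depend, was at 4.13 and 7.66 CPM in Leydig, 14.4 and 22.4 CPM in Interstitial and 0.643 and 0.916 CPM in Sertoli. It lost its call without Interstitial B (-0.86, edgeR adjusted p 0.104), as did Lyz2 (-1.72, edgeR adjusted p 0.0836). At the weight of 0.59 none of the 3 was called (edgeR adjusted p 0.294 for Csf1r, 0.104 for Cx3cr1 and 0.0614 for Lyz2), and the median of the list went from -1.21 to -0.16.

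The mesothelium, the surface layer of the gonad, was reduced less evenly. Of 9 measured genes 5 were called, all lower (median -0.40). Krt19, a keratin, was at 4.82 and 4.59 CPM in Leydig, 19.3 and 14 CPM in Interstitial and 0.536 and 0.401 CPM in Sertoli. Upk3b, a uroplakin, stood close to the blend at 69.3 and 61.2 CPM against 78 and 62.8 CPM. At the weight of 0.59 only 1 of the 9 was lower and 3 were higher. Of the neural list, Erbb3, also high in Sertoli, was called lower at 51.3 and 57.1 CPM against 81.4 and 89.6 CPM.

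**Figure D4:**
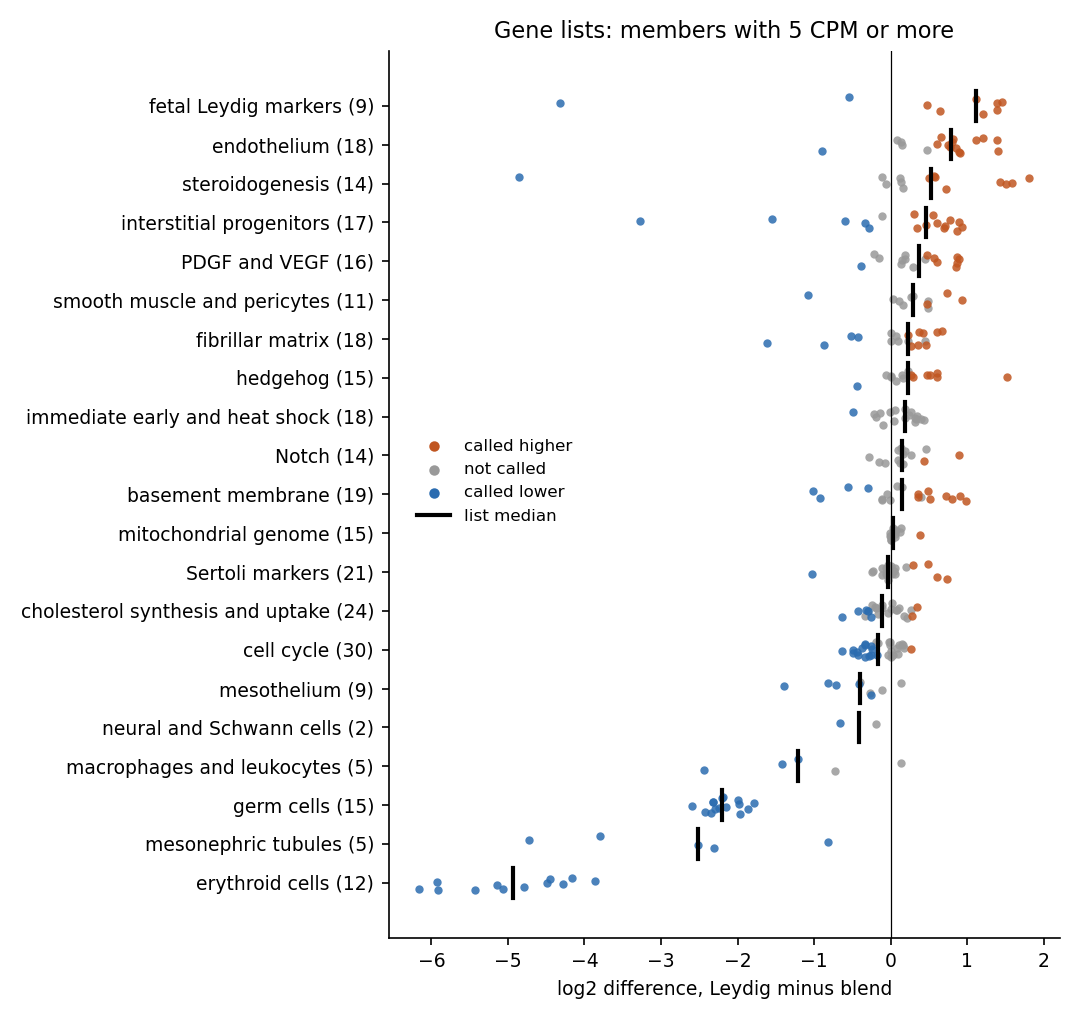
Log2 difference, Leydig minus blend (horizontal axis), of each measured member of 21 gene lists, with the number of members in brackets, coloured by call, and a black bar at each list's median. Medians run from 1.11 for the fetal Leydig markers to -4.93 for the erythroid genes, and the Sertoli markers stand at -0.04.

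Basement membrane genes split by chain. Col4a1, a chain of type IV collagen (ENSMUSG00000031502, chromosome 8, 11198423 to 11312826), was at 2026, 1673 and 1894 CPM in Leydig, 1403 and 1530 CPM in Sertoli and 759 and 732 CPM in Interstitial. It was 1.97-fold above the blend (0.98 ± 0.09 on the log2 scale, edgeR adjusted p 0.000435) and above both sorts. Its partner Col4a2 was at 842 and 695 CPM against 400 and 419 CPM in the blend. The laminin chain gene Lama2 was at 38.7 and 33.7 CPM against 22.5 and 19 CPM, while Lama5 was at 49.9 and 57.6 CPM against 109 and 107 CPM. The higher and lower laminin chains were thus separated well beyond the spread between pools. In all 8 of 19 genes were called higher and 4 lower (Lama5, Nid2 and Agrn among them), with a median of 0.15. Of all members 14.2% were called higher and 21.0% lower. The list's share called lower was thus close to that of all members, and its share called higher was above it.

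Of 18 measured fibrillar matrix genes 8 were called higher and 4 lower (median 0.22), against 14.2% and 21.0% of all members. Here too only the share called higher stood apart from that of all members. Fbn1, a microfibril protein, was at 425 and 380 CPM against 263 and 242 CPM and was above both sorts. Lum, a collagen-binding proteoglycan, was at 5.18 and 5.41 CPM in Leydig, 26.3 and 17.5 CPM in Interstitial and 1.31 and 0.63 CPM in Sertoli. Postn, Dcn and Col1a1 were the other 3 called lower. Without Leydig A or without Interstitial B the 8 became 4. Among genes of smooth muscle and pericytes, 3 of 11 were called higher, Myh11 and Acta2 being above both sorts, and 1 lower. Myh11, smooth muscle myosin, was at 19 and 16.7 CPM against 9.11 and 9.6 CPM, and the pericyte gene Rgs5 at 4.67 and 3.89 CPM against 8.64 and 9.45 CPM.

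Calls against both sorts at once do not depend on the weight, since a gene above both lies above every blend of them. The Leydig sort was above both for 595 members (5.08%) and below both for 251 (2.14%) by edgeR's quasi-likelihood tests in the same fit; of all genes tested it was 3.63% and 1.78%. These tests share the Leydig libraries. The counts were 350 and 122 without Leydig A and 319 and 150 without Interstitial B, and those below both were 136 and 133 without Sertoli A and B. Of the 100 members at least 2-fold above the blend, 80 were above both sorts, and of the 370 at least 2-fold below it 39 were below both. The margins were small: 29 were at least 2-fold above each sort and 8 at least 2-fold below each.

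Hoxd10, a homeobox gene (ENSMUSG00000050368, chromosome 2, 74691924 to 74695105), stood far above both sorts. It was at 37.5, 27.6 and 35.5 CPM in Leydig, 7.34 and 8.47 CPM in Sertoli and 9.72 and 9.51 CPM in Interstitial. It was 3.56-fold above the blend (1.83 ± 0.13 on the log2 scale, edgeR adjusted p 0.000195). Otof, the calcium sensor otoferlin, was at 15.5 and 12.2 CPM in Leydig and between 4.1 and 5.87 CPM in the A and B libraries of both sorts. Pdyn, the precursor of dynorphin opioids, was at 16.4 and 11.8 CPM in Leydig, 4.77 and 5.41 CPM in Sertoli and 4.92 and 4.65 CPM in Interstitial. Ptpro, a receptor tyrosine phosphatase, was at 33 and 25.7 CPM in Leydig, 10.1 and 8.47 CPM in Sertoli and 11.2 and 10.7 CPM in Interstitial. For these 4 genes the A and B libraries of both sorts lay close together, and both Leydig pools exceeded them. Srpx2, Vcam1 and Oit3 had margins of the same order. At least Pdyn was a member only through Leydig, as its blend lay under 5 CPM in both letters.

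Kcnj3, Kcns2, Oxtr and C7 were also far above the blend. Kcnj3, an inwardly rectifying potassium channel, was at 13.8 and 13.1 CPM against 4.38 and 4.31 CPM in the blend, and Kcns2, a potassium channel subunit, at 20.4 and 17.1 CPM against 6.16 and 6.87 CPM. Oxtr, the oxytocin receptor, was at 11.3 and 7.04 CPM against 3.54 and 2.68 CPM. C7, a component of complement, was at 10.1 and 8.59 CPM against 3.06 and 2.82 CPM. Kcnj3, Kcns2 and C7 were above both sorts, and Oxtr was not. Kcnj3, Oxtr and C7 were members only through Leydig, with the blend under 5 CPM in both letters, and so had to be higher to enter. Among the members higher in Leydig, the largest difference from the blend was that of Lars2, which encodes the mitochondrial leucyl-tRNA synthetase, at 132, 49.6 and 183 CPM in Leydig and 22.6, 25.7 and 21.1 CPM in the blends. Its level in Leydig C lay above both A and B, and its difference ranged from 1.04 to 2.45 on the log2 scale when single libraries were left out.

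Of the genes below both sorts, some are erythroid and some are not. Trim10, a gene of maturing red cells, was at 0.301 and 0.614 CPM in Leydig, 1.21 and 1.17 CPM in Sertoli and 12.3 and 16 CPM in Interstitial. Cldn6, a tight junction claudin, was at 1.81 and 2.98 CPM in Leydig, 5.98 and 6.18 CPM in Sertoli and 10 and 10.1 CPM in Interstitial. Fhod3, a formin that assembles actin, was at 6.84 and 7.39 CPM in Leydig, 18.5 and 18.6 CPM in Sertoli and 15.7 and 18 CPM in Interstitial. Cpm, a carboxypeptidase, was at 3.07 and 3.33 CPM in Leydig and between 7.07 and 10.5 CPM in the A and B libraries of both sorts. Ggt1, B4galnt3, Sox15 and Galnt16 were the others named by the rule. For all 8 of these genes Leydig was at least 2-fold below each sort.

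Cell cycle genes stood slightly below the blend, with 14 of 30 called lower and 1 higher (median -0.17). The replication licensing gene Mcm2 was at 152 and 163 CPM against 215 and 227 CPM, and Ccne1, cyclin E1, at 15.1 and 18.8 CPM against 26.7 and 25.9 CPM. Mki67, a marker of cycling cells, was not called, at 599 and 585 CPM against 533 and 527 CPM. At the weight of 0.59 only 1 of the 30 was lower and 5 were higher. Of 24 genes of cholesterol synthesis and uptake 2 were called higher and 5 lower (median -0.12), against 14.2% and 21.0% of all members. The share called lower was thus close to that of all members, and the share called higher was below it. Fdft1, squalene synthase, was at 40.1 and 48.6 CPM against 68.7 and 70 CPM, and Soat1, which esterifies cholesterol, at 208 and 219 CPM against 175 and 177 CPM. Soat1 was no longer called at the weight of 0.59 (0.04, edgeR adjusted p 0.667).

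Of 18 measured immediate early and heat shock genes, which dissociation is known to induce, 1 was called, Hsph1, which was lower. The median of the list was 0.19, and it was -0.29 without Leydig B, -0.03 without Interstitial A and 0.42 without Interstitial B. Fos was at 174 and 291 CPM in Leydig A and B and 131 and 212 CPM in the blends, so B exceeded A on both sides. Of the 15 genes of the mitochondrial genome 1 was called higher (median 0.03).

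The share of Sertoli level that each gene implies was computed as Leydig minus Interstitial over Sertoli minus Interstitial, for genes at least 4-fold apart between the sorts. A gene at the Interstitial level gives 0 and a gene at the Sertoli level 1. The 374 genes richer in Sertoli had a median share of 0.288 (quartiles 0.262 and 0.345), and 19 Sertoli markers among them 0.262. The 6 steroidogenesis genes among them gave 1.217 in the median, 1.51 in A, 0.888 in B and 1.422 in C. Within this list Star, Cyp11a1, Hsd3b1 and Cyp17a1 lay at 1.201 to 1.772, and Nr5a1 and Fdxr at 0.457 and 0.473. A single mixing share thus did not describe the genes richer in Sertoli.

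The 462 genes richer in Interstitial gave a median share of 0.816, far from 0.27, with 34 genes below 0 and 14 above 1. Erythroid genes gave 0.998, mesonephric genes 0.949, germ cell genes 0.92 and macrophage genes 0.725. Mesothelial genes gave 0.464, interstitial progenitor genes 0.521 and fibrillar matrix genes 0.266. Endothelial genes gave -0.338, with 0.019 in A and -0.715 in B. By these medians the Leydig sort was at the Sertoli level for red cell genes and beyond the Interstitial level for endothelial genes in B. For the progenitor and matrix genes at least 4-fold richer in Interstitial, the medians lay between the sorts. These were only 6 of the 17 progenitor members, with shares from -0.153 to 1.035, and 7 of the 18 matrix members. Of the 17 progenitor members, 7 were above both sorts.

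**Figure D5:**
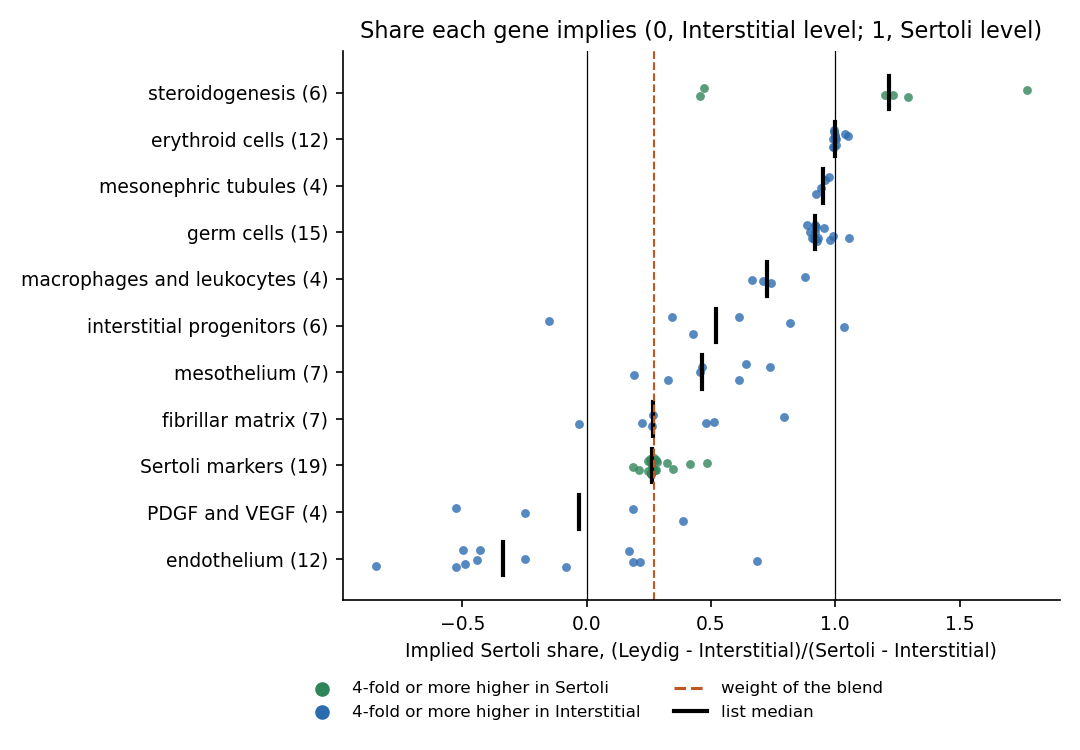
Sertoli share implied by each gene (horizontal axis; 0 is the Interstitial level and 1 the Sertoli level, from mean CPM of A and B) for genes of the named lists at least 4-fold richer in Sertoli (green) or in Interstitial (blue), with the number of genes in brackets and black bars at list medians. The dashed line marks the weight of 0.27, on which the Sertoli markers (0.262) and the fibrillar matrix genes (0.266) have their medians, while erythroid genes lie at 0.998 and steroidogenesis genes at 1.217.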

How the data were processed

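The authors deposited raw read counts for each gene, by library and lane, from 9 libraries (3 per population, 4 lanes each); reads were aligned with TopHat2 2.0.6 to mm10 and counted with HTSeq, per the submitters' processing notes. The annotation release and the strand setting were not given in the sources used here. Reads of overlapping antisense genes therefore cannot be told apart. Lanes were summed; 5 HTSeq summary lines were left out of the library sizes (reads outside genes 32.23 to 38.52%, ambiguous reads 0.62 to 0.77%). Depth was 33.12 to 39.24 M reads in genes. Symbols and coordinates came from GENCODE for GRCm38 (36722 of 38560 gene rows).

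CPM used the plain library size, with no normalisation factors, so that the blend is a mix of shares of reads. Replicates A and B of all 3 populations were fitted together with edgeR 4.0.16 in R 4.3.3 (filterByExpr, 18048 genes, 3 residual and 5.3 prior degrees of freedom, common biological coefficient of variation 0.0878). The log2 difference of the Leydig mean from the weighted mean had a delta-method SE and was set against a t distribution with the total degrees of freedom of the fit. P-values were adjusted by Benjamini-Hochberg over the 18048 genes and called at 0.05; percentages of genes called are over the 11707 members. The comparisons of Leydig with each sort used glmQLFTest in the same fit. On data simulated with known changes, the test found nearly all of the larger changes in the right direction, but the share of false calls was above the 0.05 aimed at, so calls near the threshold are less firm than their adjusted p-values. Alternatives were other weights, scalings, filters and libraries, the letter as a block, DESeq2 1.42.0 and limma 3.58.1 on log2(CPM + 0.5).

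The comparison, the weight and all gene lists were chosen with earlier results of these data known. Genes were named by a rule: the 12 with the largest difference per direction, the 8 furthest above and below both sorts, a set of marker genes, and 3 at each end of each list; other genes of the lists were named after their values were seen. Lists are described by counts and medians, without a test. Promoter windows of Star and Cyp17a1 were not used here, and those of Cyp11a1 were searched but are not shown. The authors' 3 tables of limma results were not used. Some list members are counted but not reported by name here.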

Additional observations from a re-analysis of the deposited data

How the results depend on the processing

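The counts depended on the weight, on the CPM threshold, on C and on single pools. With the weight of 0.59, 156 genes were at least 2-fold higher and 246 lower. With 1 CPM in place of 5, these were 158 and 895, and with 10 CPM 230 were lower. With all 9 libraries, 2905 genes were higher, 1108 above both sorts and 475 below both. Leaving out single libraries gave 892 to 1541 genes higher, 1479 to 2304 lower, 61 to 128 at least 2-fold higher, 308 to 475 at least 2-fold lower, 319 to 613 above both sorts and 122 to 312 below both. The lowest values came without Leydig A or Interstitial B for the genes higher, lower, above and below. The median distance of Leydig A was 0.215 at a weight of 0.20 and 0.218 at 1 CPM; that of Leydig B was 0.196 and 0.198, and 0.156 at a weight of 0.59. DESeq2 called 1638 genes higher and 2374 lower, and limma 1390 and 2139. TMM, RLE and library sizes without the mitochondrial genome left every count of genes within 1.5 times. The cause of these shifts was not tested.

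The letters did not pair the samples by the labels, and A minus B correlated at 0.095 between Leydig and Sertoli, 0.414 between Leydig and Interstitial, 0.282 between Sertoli and Interstitial and 0.43 between Leydig and the blend, across genes. With the letter as a replicate block, edgeR called 2209 genes higher, 3021 lower and 378 below both sorts, and limma 2289 and 3105; 6 immediate early genes were then higher by edgeR. In the Notch list 4 genes were then higher and 1 lower by edgeR, with Hes1 (0.44, adjusted p 0.00627) and Hey1 (-0.28, adjusted p 0.0157) among them.

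Named genes that were called with either setting changed direction only with the weight, among the alternatives run. At 0.20, Dhh was at 0.31, Amh 0.32, Hsd17b3 0.32 and Cst9 0.34. At 0.59, Nid2 was at 0.06, Dlk1 0.09, Dcn 0.21, Gas1 0.19, Cdh3 0.0, Angpt1 0.47, Pdgfc 0.28, Upk3b 0.66 and Gli3 0.27, and Akr1b7 -0.93, Ptgds -0.98, Nr0b1 -0.49, Sox9 -0.69, Pcsk6 -0.26, Cyp26b1 -0.43, Nr5a1 -0.27, Fdxr -0.25 and Gdnf -0.24. Depth limits genes near the threshold of 5 CPM most.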

Other observations

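Some genes known from Leydig cells or vessels lay under 5 CPM in a letter and so outside the members. Of the 18048 genes tested, members or not, 10.3% were higher in Leydig than in the blend and 19.4% lower by edgeR. Crhr1, the receptor for corticotropin-releasing hormone, was at 7.68, 4.56 and 6.78 CPM in Leydig A, B and C and 2.08, 1.62 and 1.97 CPM in the blends. Every Leydig library was above every blend (1.72 on the log2 scale, edgeR adjusted p 0.00198), and Sertoli had 4.13 and 3.72 CPM. Lhcgr showed the same order and was higher by 1.73 on the log2 scale (edgeR adjusted p 0.00212). Akr1b7, an aldo-keto reductase of steroidogenic cells, stood at the blend like the Sertoli genes, at 2.02 and 1.46 CPM against 1.87 and 1.54 CPM, with 5.79 and 4.89 CPM in Sertoli. Plvap, which forms the diaphragms of endothelial pores, was with Pecam1 below the blend, at 2.38 and 2.92 CPM against 9.15 and 4.77 CPM (-1.40 on the log2 scale, edgeR adjusted p 0.0106). With the weight of 0.59 Plvap was no longer called (-0.87, edgeR adjusted p 0.0554).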
